A study of Mus musculus with 18 samples.

Results

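A set of 8 genes of the SIX-type homeobox, EYA and DACH families was followed through the differentiation of mouse embryonic stem cells toward heart muscle. They were taken by symbol (Six2, Six4, Six5, Eya1, Eya2, Eya3, Eya4 and Dach1), and the table held all 8 among its 23337 gene symbols. The cells were of the untreated line TBX5-FTA, which carries the strain name A2Lox.cre. No sample was perturbed. Libraries of poly(A) RNA were made at D15, D10 and D8, labelled immature cardiomyocytes, and at D7, D6 and D5, labelled cardiac progenitor cells, where D is the day of harvest. Each day had 3 libraries, 18 in all, with 5257601 to 7122093 counts each. All came from 1 cell line. The labels do not say whether a day's libraries were grown as separate cultures, so the p-values rest on a spread between libraries that may be only technical.

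SIX-family proteins are homeobox transcription factors. EYA proteins do not bind DNA themselves. They enter the nucleus with SIX-family partners, act as co-activators and also carry a phosphatase domain. DACH proteins, relatives of SKI, act with corepressors on the same network, which is best known from eye, ear, kidney and muscle development and often lies downstream of PAX genes. In the mouse embryo SIX-family and EYA genes are active in progenitors of the second heart field, the source of the outflow tract and much of the right side of the heart, and Six2 marks a population of those progenitors.

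The labelled cell types were checked against their markers. The summed level of 9 cardiomyocyte markers (Myh6, Tnnt2 and others) had a mean of 7024 CPM at D15 and 449.1 CPM at D5, and none of the 9 was without a count on either day. CPM are counts scaled to the size of the library, here with TMM factors. The 9 fibroblast and matrix markers reached 44190 CPM at D15, against 454.9 CPM at D5, and all 9 rose. Their sum was above that of the cardiomyocyte markers at D15, but sums over different genes, not scaled by length, do not rank cell types. The 8 epicardium and mesothelium markers reached 2968 CPM at D15, against 490.2 CPM at D5, with Msln without a count at D5. In such bulk samples, fewer cells of a type and less RNA per cell cannot be told apart, and the part of cell type shares in the results that follow was not tested. The cardiomyocyte sum fell from the first to the last of a day's 3 columns on 6 of 6 days. The labels do not say whether columns in the same place share a culture, and the tests treat all 18 libraries as separate. Of 8 skeletal muscle genes, Myod1, Myog and Myf6 had no count at D5, where Myf5 had 1 and Pax7 had 12. At D15 Myod1, Myf5 and Pax7 had none, Myog had 7 and Myf6 had 3. Actn3 had a mean of 32.7 CPM at D15 and 3.98 CPM at D5, and Tnni2 9.96 and 2.03 CPM. Tnnt3 was lower at D15, at 13.1 CPM against 27.4 CPM at D5.

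Most of the genes were lower at the end than at the start, and Six5 and Eya3 carried most of the family signal throughout. Dach1, Six4, Eya1 and Eya3 fell between D5 and D15 (edgeR quasi-likelihood test, Benjamini-Hochberg adjusted over 13116 genes, called at an adjusted p under 0.05), as did Six2, which was tested only because its D5 level was high, and Eya4, whose call was fragile. Six5 was highest at D10 and fell again by D15. The steps in which a fall was called differed, but steps and genes were not tested against each other. Six2 and Dach1 were called in the first step, Six4 in the 3 steps between D6 and D10, and Eya1 in those from D8 to D15. From D6 to D7, Six2, Eya1, Dach1 and Eya3 lay lower without overlap, by 1.62, 0.73, 0.95 and 0.19 log2 units. Six5 lay higher without overlap, by 0.15. None of these differences passed (adjusted p = 0.0949, 0.0506, 0.064, 0.097 and 0.452). The libraries of Six4, called in that step, overlapped. The share of all genes without overlap in that step was not counted. The calls of Six4 from D6 to D7 and from D7 to D8, and of Eya1 from D8 to D10, were lost without certain single libraries.

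**Figure D1:**
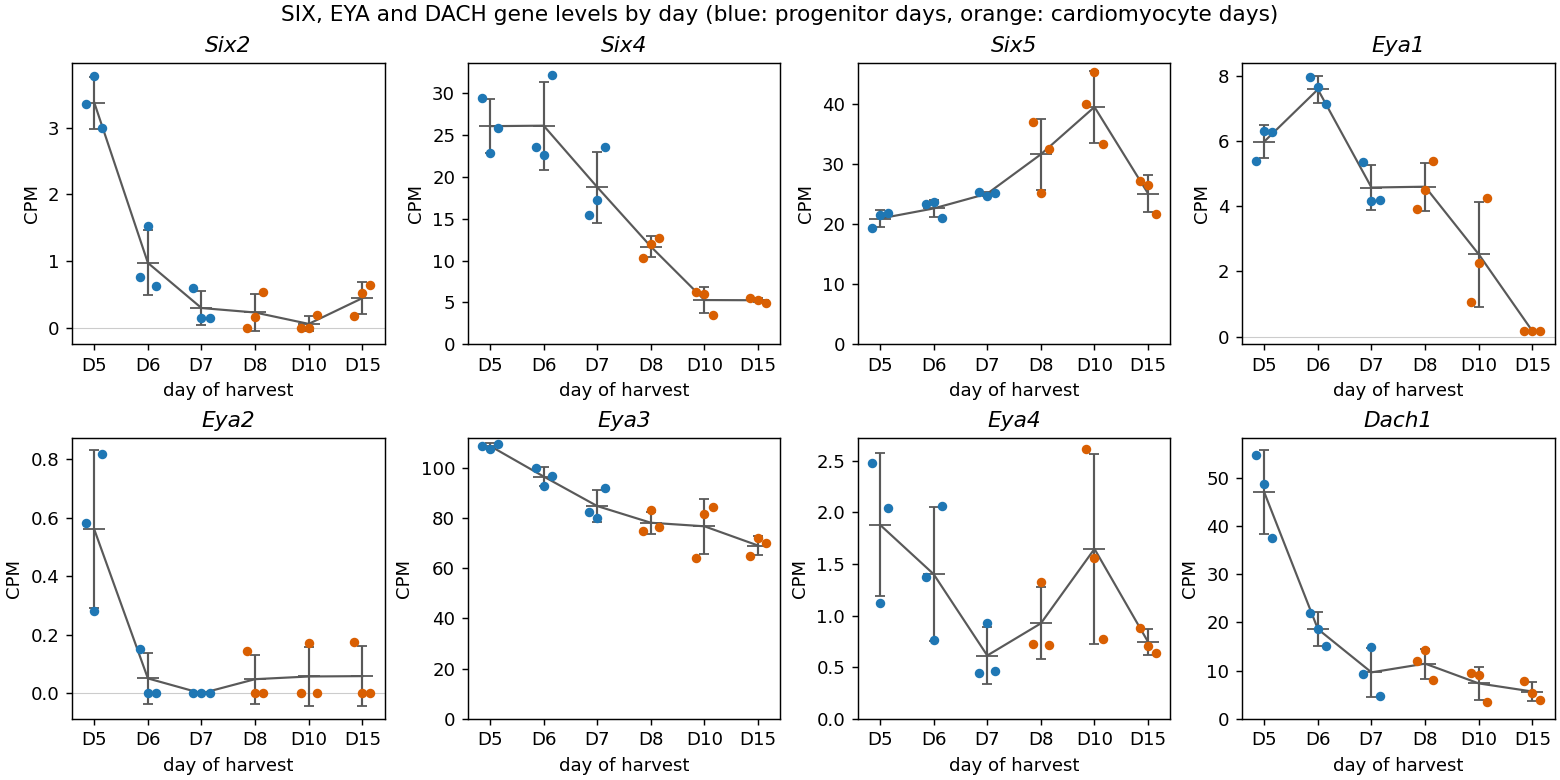
CPM of each of the 8 genes (vertical axes, each with its own scale) on the 6 days of harvest (horizontal axes). Points are libraries, blue on progenitor days and orange on cardiomyocyte days, and the line joins day means with bars of 1 SD (n = 3). Six2 and Dach1 are highest at D5, Six5 is highest at D10, and Eya3 lies between 64.0 and 109.6 CPM in every library.

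The 8 genes were judged against a table in which most genes moved. Across the 6 days 7 of the 8 were tested and 7 were called, where 88.9% of all tested genes were called. Between D15 and D5, 6 were called, all lower, where 78% of all genes were called and 37.7% were called lower. When the 3 cardiomyocyte days were set against the 3 progenitor days, 5 were lower and 1, Six5, higher, where 77.1% of all genes were called, 37.8% lower and 39.3% higher. A call alone therefore sets none of these genes apart. Eya2 did not pass the filter on low counts (1.57 CPM in at least 3 libraries). Six2 passed it through the 3 D5 libraries only and Eya4 through 4 libraries of D5, D6 and D10, so a difference between those days and others was in part a condition of being tested. The median log2 fold change over all genes was 0.0322 for D15 against D5.

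Six2 and Dach1 had a fall called in the first step, Six4 had falls called from D6 to D10, and Six5 was highest at D10. Promoter sequences of these 4 genes, chosen after their values were seen, are shown. They are the bases before the transcription start from RefSeq on GRCm38.p6, 5′ to 3′ on the strand of the gene, without bases inside an annotated exon. Capitals mark GC boxes (GGGCGG) and CCAAT boxes (CCAAT) on either strand.
Six2, chr17:85688275-85688504, minus strand: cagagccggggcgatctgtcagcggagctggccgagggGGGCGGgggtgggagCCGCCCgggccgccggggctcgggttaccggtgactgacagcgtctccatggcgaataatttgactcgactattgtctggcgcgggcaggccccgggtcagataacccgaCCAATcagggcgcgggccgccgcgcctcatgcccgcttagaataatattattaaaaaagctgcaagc
Dach1, chr14:98169766-98170015, minus strand: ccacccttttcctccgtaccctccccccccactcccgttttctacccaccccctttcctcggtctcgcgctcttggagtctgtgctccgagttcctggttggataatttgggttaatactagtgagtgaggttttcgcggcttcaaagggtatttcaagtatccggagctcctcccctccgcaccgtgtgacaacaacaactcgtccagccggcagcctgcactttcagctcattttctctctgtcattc
Six4, chr12:73113457-73113675, minus strand: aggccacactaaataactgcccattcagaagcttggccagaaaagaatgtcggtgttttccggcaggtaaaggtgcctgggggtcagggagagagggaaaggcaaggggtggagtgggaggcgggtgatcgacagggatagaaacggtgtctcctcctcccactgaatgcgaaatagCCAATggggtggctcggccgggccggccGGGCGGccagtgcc
Six5, chr7:19094294-19094543, plus strand: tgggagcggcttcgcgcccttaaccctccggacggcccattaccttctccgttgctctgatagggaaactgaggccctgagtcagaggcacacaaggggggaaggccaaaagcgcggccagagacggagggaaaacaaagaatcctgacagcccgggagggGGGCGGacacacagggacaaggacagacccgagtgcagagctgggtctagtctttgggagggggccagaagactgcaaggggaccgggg
The Six2 stretch holds 2 GC boxes and 1 CCAAT box, Six4 holds 1 of each, Six5 holds 1 GC box, and Dach1 holds neither. Within 250 bases before 1 start per gene, 32.9% of 27025 promoters held a GC box and 34.5% a CCAAT box. The MEF3 motif that SIX-family proteins bind (TCAGGTT, in 3.49% of promoters), the GLI motif (GACCACCCA, in 0.211%) and a TATA box (TATAAA, in 13%) were in none of the 6 members' windows in the table, which include Eya3 and Eya4. An E box (CANNTG, in 66% of promoters) was in that of Eya3 alone, with no overlap with its 3 GC boxes. The G and C content of the windows was 64.8% for Six2, 54.8% for Dach1, 58.8% for Six4 and 62.8% for Six5, against a median of 52% over all promoters. Promoters of Eya1 and Eya2 were not used here.

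Among the SIX-family genes, Six2 was highest at the earliest harvest and sparse from D7 on. Six2 (mm10 chromosome 17, 85684277 to 85688274), which keeps progenitors of the kidney from differentiating and marks second heart field progenitors in mouse embryos, had 3.35, 3.77 and 3.0 CPM in the D5 libraries. It had 0.765, 1.53 and 0.634 CPM at D6 and 0.596, 0.154 and 0.155 CPM at D7. All D5 libraries lay above all others, and D6 and D7 did not overlap either. Summed over the 3 libraries of each day, D5, D6, D7, D8, D10 and D15 had 72, 19, 6, 4, 1 and 8 counts. Six2 fell by 1.76 ± 0.485 log2 units from D5 to D6 (SE, adjusted p = 0.00483) and by 2.84 ± 0.576 between D5 and D15 (adjusted p = 4.74e-05). As Six2 was tested through its D5 libraries only, these tests of D5 against other days had a difference as a condition. With no filter the falls were 1.76 (adjusted p = 0.0114) and 2.84 (adjusted p = 6.80e-05). The later steps did not pass the test. At D15 the 3 libraries had 0.177, 0.532 and 0.640 CPM, against 0, 0 and 0.193 CPM at D10, a ratio of 7.96 with a 95% counting interval of 1.07 to 353 that did not pass (adjusted p = 0.073). It passed without the D10 library of 5257601 counts (adjusted p = 0.0387) or the D15 library of 6129209 counts (adjusted p = 0.0498), so 1 library decided that call.

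Six4 fell steadily over the middle of the time course. Six4 (chromosome 12, 73099609 to 73113456) acts in muscle and kidney development, partly in place of other SIX-family genes. It had 29.4, 22.9 and 25.9 CPM at D5, 23.6, 22.7 and 32.2 CPM at D6, and 15.5, 17.3 and 23.6 CPM at D7. The libraries of D5 and D6 overlapped, as did those of D5 and D7. It had 10.3, 11.95 and 12.8 CPM at D8, 6.29, 6.04 and 3.48 CPM at D10, and 5.47, 5.32 and 4.96 CPM at D15. All D8 libraries lay below all D7 libraries and all D10 libraries below all D8 libraries, whereas D10 and D15 overlapped. The step from D6 to D7 was a fall of 0.48 ± 0.17 log2 units (adjusted p = 0.0335). The step from D7 to D8 was a fall of 0.69 ± 0.187 (adjusted p = 0.00681), and that from D8 to D10 a fall of 1.12 ± 0.226 (adjusted p = 3.08e-04). No change passed between D5 and D6 (0.0027 ± 0.164, adjusted p = 0.999) or between D10 and D15 (-0.029 ± 0.258, adjusted p = 0.938). Over the whole span Six4 fell by 2.31 ± 0.205 (adjusted p = 2.61e-11), to 20.1% of its D5 mean. The call from D6 to D7 was lost without the D6 library of 6208403 counts (adjusted p = 0.244), without the D7 library of 6417737 counts (0.167) or that of 6339689 counts (0.117), and the call from D7 to D8 without the D7 library of 6377572 counts (0.0809).

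Six5 was the one gene of the 8 that was higher on the cardiomyocyte days. Six5 (chromosome 7, 19094594 to 19098549) lies 772 bases after Dmpk, the kinase gene whose repeat expansion causes myotonic dystrophy in humans. It had 19.4, 21.5 and 21.8 CPM at D5, 23.3, 23.6 and 20.9 CPM at D6, and 25.3, 24.7 and 25.1 CPM at D7. It then had 37.0, 25.2 and 32.5 CPM at D8, 39.9, 45.2 and 33.3 CPM at D10, and 27.2, 26.4 and 21.6 CPM at D15. Every D10 library lay above every library of D5, D6, D7 and D15, and neighbours in the order D10, D8, D15, D7 overlapped. The mean of the 3 later days was higher than that of the 3 earlier days by 0.47 ± 0.079 log2 units (adjusted p = 4.50e-06). The single steps from D7 to D8 (0.34 ± 0.135, adjusted p = 0.0676) and from D8 to D10 (0.32 ± 0.131, adjusted p = 0.0621) did not pass. The step from D10 to D15 was a fall of 0.66 ± 0.135 (adjusted p = 1.54e-04). D15 and D5 overlapped, and their difference did not pass (0.26 ± 0.14, adjusted p = 0.0935). It passed without the D15 library of 6831683 counts (adjusted p = 0.0344). Without the D8 library of 5946961 counts the step from D7 to D8 passed (0.48, adjusted p = 0.013), and without the D8 library of 6769054 counts or the D10 library of 5257601 counts so did that from D8 to D10 (adjusted p = 0.0172 and 0.0198).

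Among the tested EYA genes, Eya1 had the largest fall between D5 and D15, most of it after D10. Eya1 (chromosome 1, 14168954 to 14310235), the mouse gene whose human counterpart is mutated in branchio-oto-renal syndrome, had 5.38, 6.29 and 6.27 CPM at D5, 7.95, 7.66 and 7.13 CPM at D6, and 5.36, 4.17 and 4.19 CPM at D7. It had 3.92, 4.48 and 5.39 CPM at D8, 1.08, 2.25 and 4.26 CPM at D10, and 0.177, 0.177 and 0.160 CPM at D15, which is 1 count in each D15 library. All D6 libraries lay above all others, and all D15 libraries below all others. The difference between D6 and D5 did not pass the test (0.34 ± 0.272 log2 units, adjusted p = 0.356). Eya1 fell by 0.90 ± 0.338 from D8 to D10 (adjusted p = 0.0411) and by 3.69 ± 0.647 from D10 to D15 (adjusted p = 1.28e-05). With 3 counts at D15 and 128 at D5, the D5 level was 35.1 times the D15 level (95% counting interval 11.7 to 172, adjusted p = 9.14e-10). The D8 to D10 call was lost without any one of 4 libraries, those of D8 with 5946961 and 5583288 counts and of D10 with 6506504 and 5805681 counts (adjusted p = 0.0759, 0.13, 0.28 and 0.109). The step from D6 to D7, -0.73 ± 0.283, just missed the threshold (adjusted p = 0.0506). It passed without the D10 library of 6506504 or 5257601 counts or the D15 library of 6129209 or 6831683 counts (adjusted p = 0.0269, 0.0262, 0.0449 and 0.046), none of which belongs to those days.

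Eya2 and Eya4 were near the limit of detection. Eya2 (chromosome 2, 165595032 to 165771727), an EYA gene of sensory placodes and muscle, had 4, 2 and 6 counts in the D5 libraries, 1 count over D6, none at D7 and 1 count each over D8, D10 and D15. It was thus seen in every D5 library and in 4 of the 15 others. The D5 level was 9.86 times the D15 level with a 95% counting interval of 1.46 to 422, and the filter kept it out of the main test. At D7 the absence of counts allows a level of up to 0.157 CPM (3 counts over the 3 libraries). Eya4 (chromosome 10, 23102963 to 23350786), mutated in a human dilated cardiomyopathy with hearing loss, had 2.47, 1.12 and 2.05 CPM at D5, 1.38, 0.766 and 2.06 CPM at D6, and 0.447, 0.926 and 0.465 CPM at D7. It had 0.726, 1.33 and 0.718 CPM at D8, 2.61, 1.55 and 0.774 CPM at D10, and 0.883, 0.709 and 0.640 CPM at D15. Every pair of neighbours in the order of day means overlapped. Eya4 passed across days (adjusted p = 0.039) and fell by 1.32 ± 0.548 log2 units between D5 and D15 (adjusted p = 0.0278), and no step passed. The call across days was lost under 10 of the 18 fits that left out a library, with adjusted p up to 0.104. The call for D15 against D5 was lost without the D5 library of 6689537 or 7122093 counts or the D15 library of 6121454 or 6831683 counts (adjusted p = 0.111, 0.0647, 0.0662 and 0.0781). Without the D10 library of 5257601 counts the step from D10 to D15 passed, at -1.48 (adjusted p = 0.0357).

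Eya3 was the most abundant of the 8 and fell slowly. Eya3 (chromosome 4, 132638987 to 132724765), the most widely expressed EYA gene, had 108.8, 107.6 and 109.6 CPM at D5, 92.7 and 96.9 CPM in the 2 lower D6 libraries (D6 mean 96.5 CPM), and 82.2, 80.1 and 91.9 CPM at D7. It had 74.8, 83.1 and 76.3 CPM at D8, 64.0, 81.7 and 84.3 CPM at D10, and 64.8, 72.1 and 70.1 CPM at D15. D5, D6 and D7 did not overlap each other, and D7, D8, D10 and D15 each overlapped the next. Between D5 and D15 it fell by 0.66 ± 0.0863 log2 units (adjusted p = 6.96e-08), to 63.5% of its D5 mean, and no single step passed. Without the D10 library of 6506504 counts the step from D10 to D15 passed, at -0.27 (adjusted p = 0.0123).

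Dach1 had the steepest early loss of the abundant members. Dach1 (chromosome 14, 97786853 to 98169765), which encodes a nuclear corepressor and in mice takes part in coronary artery growth, had 54.7, 48.6 and 37.5 CPM at D5, 22.0, 18.7 and 15.1 CPM at D6, and 9.23, 14.8 and 4.81 CPM at D7. It had 11.9, 14.3 and 8.08 CPM at D8, 9.52, 8.98 and 3.48 CPM at D10, and 7.77, 5.32 and 3.84 CPM at D15. D5 lay above D6 and D6 above all later days without overlap. Among the later days, neighbours in the order D8, D7, D10, D15 overlapped, but all D8 libraries lay above all D15 libraries. Dach1 fell by 1.33 ± 0.314 log2 units from D5 to D6 (adjusted p = 0.00439) and by 3.06 ± 0.376 between D5 and D15 (adjusted p = 2.91e-06), to 12% of its D5 mean. The step from D6 to D7, at -0.95 ± 0.365, did not pass (adjusted p = 0.064), but did so without the D7 library of 6339689 counts (-1.40, adjusted p = 0.0113) or the D10 library of 5257601 counts (-0.95, adjusted p = 0.0338). On 6 of 6 days Dach1 was lowest in the library in which the summed cardiomyocyte markers were lowest, which held on 0 to 3 days for the other members. That library was the last of its day's columns on every day, so the 6 days may not be separate observations. At D10 the markers summed to 4892, 3460 and 1839 CPM in the libraries with 9.52, 8.98 and 3.48 CPM of Dach1, and at D7 to 1417, 1153 and 541.6 CPM in those with 9.23, 14.8 and 4.81 CPM. The part of muscle RNA in the Dach1 values was not tested.

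**Figure D2:**
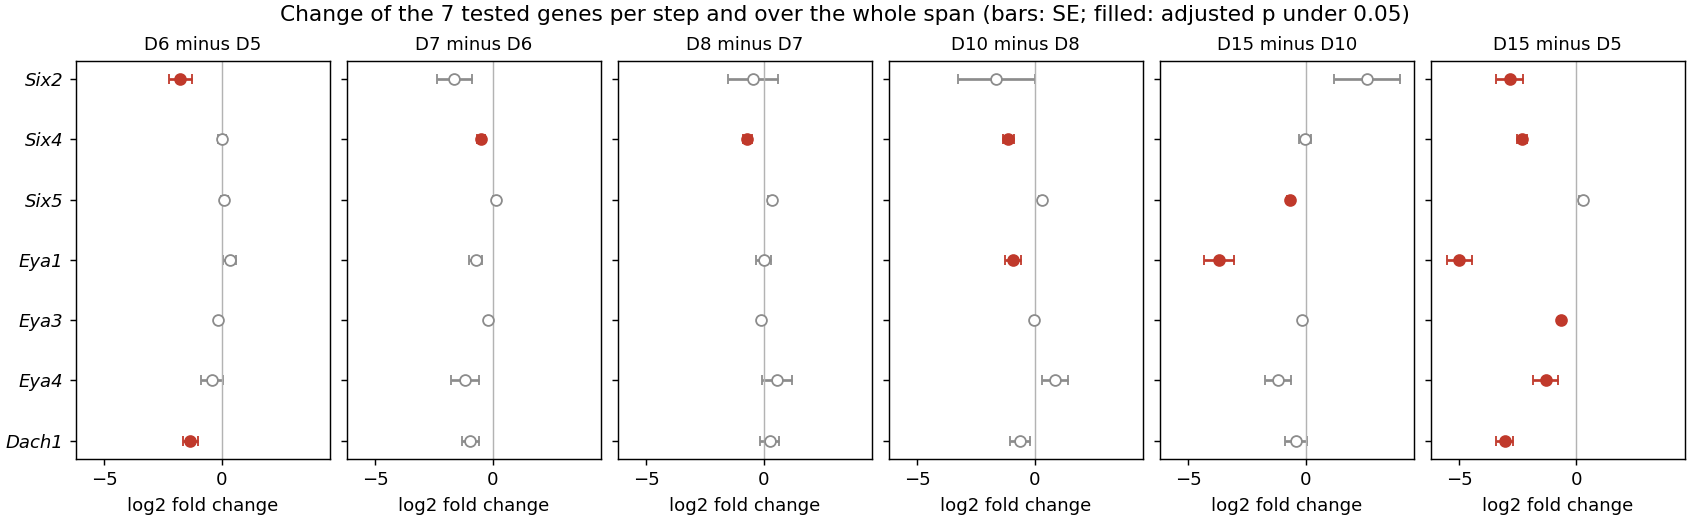
Log2 fold change (horizontal axes, later day minus earlier day, bars of 1 SE) of the 7 tested genes (rows) for each step and for D15 against D5. Filled red points passed an adjusted p of 0.05; Six2 and Dach1 passed in the step from D5 to D6, Six4 in the 3 steps from D6 to D10, and Six5 and Eya1 from D10 to D15.

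Read by step, few members were called at a time. From D5 to D6, 2 of the 7 tested were called, Dach1 and Six2, where 34.6% of all genes were, and the test of Six2 was conditional on its D5 level. From D6 to D7 and from D7 to D8 it was Six4 alone, where 30.4% and 24.2% of all genes were called. From D8 to D10 it was Six4 and Eya1 (all genes 31.2%), and from D10 to D15 Eya1 and Six5 (all genes 50.8%). All 8 of these step calls were falls, where 16.4%, 15.3%, 11.6%, 13.9% and 24.4% of all genes fell in the 5 steps in order. Counted in either direction, the members were called in a step no more often than the table as a whole. The called falls, 1 or 2 members a step, were 28.6%, 14.3%, 14.3%, 28.6% and 28.6% of those tested. These shares lay above those of all genes that fell except from D6 to D7.

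Set stage against stage, with the means of the 3 cardiomyocyte days against those of the 3 progenitor days, Six4 was the one member whose 9 later libraries all lay below its 9 earlier ones. Of all 13116 tested genes 8.23% had all later libraries below all earlier ones and 8.67% all above. Six4 fell by 1.76 ± 0.116 log2 units (adjusted p = 2.98e-14). Six2 fell by 2.33 ± 0.583 (adjusted p = 3.40e-04), Eya1 by 2.20 ± 0.243 (adjusted p = 1.52e-09), Dach1 by 1.37 ± 0.224 (adjusted p = 5.47e-05) and Eya3 by 0.37 ± 0.05 (adjusted p = 1.12e-07). Six2 was tested through its D5 libraries only, which are among the earlier ones, so its test had a difference as a condition. With no filter its fall was 2.33 (adjusted p = 2.32e-04). Eya4, at -0.15 ± 0.332, did not pass (adjusted p = 0.68).

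Compared per kilobase of exons, Eya3 and Six5 held the highest levels on every day. Eya3 had 19.3 ± 0.178 CPM per kb at D5 and Six5 had 6.95 ± 0.448, with Dach1 close behind Six5 at 6.42 ± 1.19 (SD, n = 3). At D10 Six5 had come level with Eya3, at 13.1 ± 2.0 and 13.6 ± 1.96 CPM per kb. Eya1 had 0.0219 ± 0.00125 CPM per kb at D15, against 0.766 ± 0.0663 at D5. Within the 3 SIX-family members, the share of Six5 in their summed CPM per kb was 63.5% at D5, 72.3% at D6, 81.7% at D7, 89.6% at D8, 96.2% at D10 and 92.2% at D15. Six2 made up 14.5% of it at D5 and 0.265% at D10. Within the 4 EYA members, Eya3 held 93.8% to 99% on every day. No exon of the 8 genes overlaps an exon of another annotated gene (GENCODE M21), and at least 98.97% of the 50-base stretches of each gene's transcripts occur in no other gene.

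**Figure D3:**
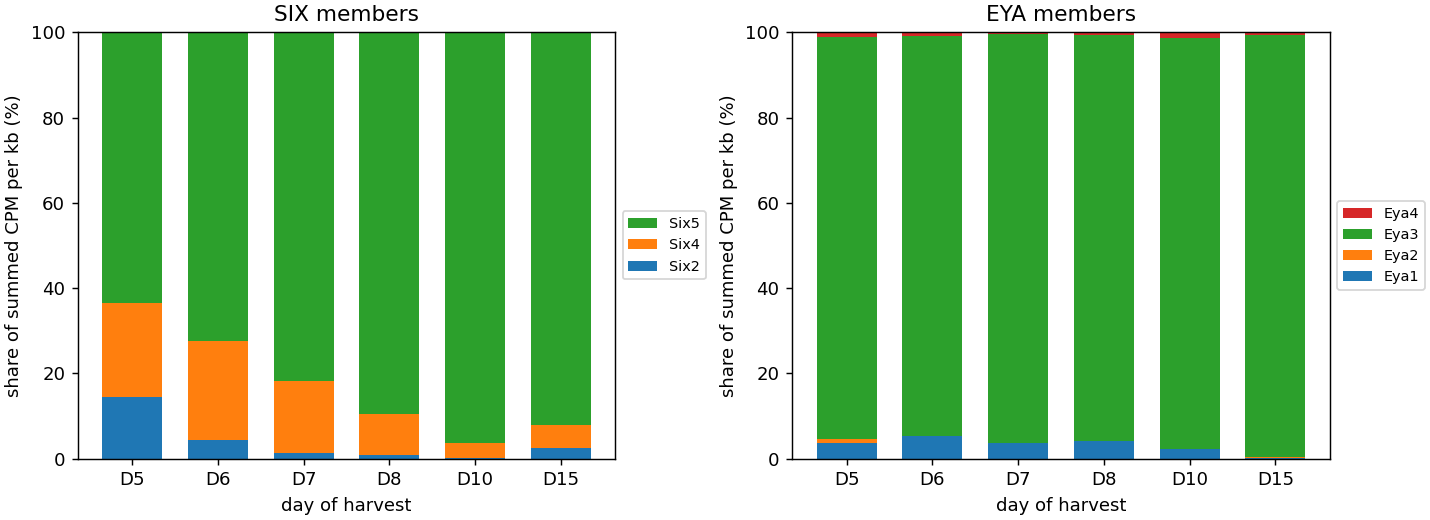
Share of each gene (vertical axes, percent) in the summed CPM per kb of the 3 SIX-family members (left) and the 4 EYA members (right), as the mean of 3 libraries per day (horizontal axes). Six5 made up 63.5% of the SIX-family signal at D5 and 96.2% at D10, and Eya3 made up over 93% of the EYA signal on every day.

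Of the other network genes, those of the PAX family, Six3, Six6 and Dach2 were sparse, whereas the corepressor genes were not. Of 9 PAX genes only Pax6, of the eye and neural tube, passed the filter. It had 31, 66, 45, 33, 31 and 1 counts summed over D5, D6, D7, D8, D10 and D15 and fell between D5 and D15 (adjusted p = 5.69e-04). Pax2, of the early kidney, had 9 counts at D5, 4 at D6 and none later. Six3, the neighbour of Six2 on chromosome 17 at a distance of 54974 bases, had no count in the 18 libraries, Six6 had 1, and Dach2 had 15 at D5 and 6 at D15. All 11 corepressor genes were tested, among them the Groucho genes whose products bind SIX-family proteins and the DACH relatives Ski and Skil. Of these, 6 rose and 3 fell between D5 and D15 (median 0.15, against 0.0322 over all genes), where 40.3% of all genes were called higher and 37.7% lower. Aes, a short Groucho gene, had 252.3 ± 19.8 CPM at D15 and 5.99 ± 0.121 CPM at D5 (log2 fold change 5.39 ± 0.286, adjusted p = 4.97e-10). Skil had 150.8 ± 11.8 CPM at D15 and 74.5 ± 2.66 CPM at D5 (1.02 ± 0.0812, adjusted p = 2.52e-12). Tle3 fell by 1.02 ± 0.0871 (adjusted p = 3.55e-11) and Sin3a by 0.85 ± 0.0718 (adjusted p = 8.66e-12).

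Genes of the second heart field were divided. Of 11 listed, 9 were tested, of which 6 fell and 3 rose between D5 and D15 (median -2.09, against 0.0322 over all genes). Of all genes, 37.7% were called lower and 40.3% higher. Hoxb1, of its posterior part, fell by 5.79 ± 0.196 log2 units (adjusted p = 4.30e-20), and the ligand gene Fgf10 by 3.49 ± 0.195 (adjusted p = 1.33e-12). Osr1, of intermediate and lateral mesoderm, rose by 6.25 ± 0.227 (adjusted p = 1.81e-19). Tbx1, which lies upstream of SIX-family and EYA genes in the pharynx, was below the filter with 32, 12, 1, 1, 0 and 0 counts over D5, D6, D7, D8, D10 and D15. Of 8 genes of kidney mesenchyme, where Six2 and Eya1 act together, 3 were tested. Sall1 had 0.973 ± 0.549 CPM at D15 and 90.8 ± 12.5 CPM at D5 (-6.52 ± 0.262, adjusted p = 3.38e-17), Cited1 fell by 4.12 ± 0.555 (adjusted p = 9.06e-08), and Wt1, which also marks epicardium, rose by 4.75 ± 0.0902 (adjusted p = 7.07e-27). Hoxa11 and Hoxd11 had no count.

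Genes reported as targets of SIX-family proteins or linked to Six5 went both ways. Of 12 listed, 9 were tested, of which 6 rose and 3 fell between D5 and D15 (median 0.46, against 0.0322 over all genes). Of all genes, 40.3% were called higher and 37.7% lower. Dmpk had 18.2, 20.3 and 21.7 CPM at D5, 42.1, 34.5 and 29.6 CPM at D10, and 184.6, 174.6 and 186.1 CPM at D15. Dmpk thus rose by 2.35 ± 0.102 log2 units from D10 to D15 (adjusted p = 1.38e-17), a step in which its neighbour Six5 fell. Mycn, a growth regulator, fell by 2.25 ± 0.121 (adjusted p = 4.02e-15) and the chloride transporter gene Slc12a2 by 1.37 ± 0.0975 (adjusted p = 1.56e-12). Igfbp5, a growth factor binding protein reported as a target of SIX5, was singled out after its values were seen. It had 58.9 ± 2.87, 771.5 ± 136.8, 1830.0 ± 128.1, 3095 ± 713.9, 3542 ± 484.9 and 1239 ± 254.1 CPM over D5, D6, D7, D8, D10 and D15. Like Six5 it had its highest mean at D10 and fell from D10 to D15, by 1.52 ± 0.188 (adjusted p = 1.74e-05). As with Six5, the Igfbp5 libraries of D8 and D10 overlapped and their difference did not pass (0.19 ± 0.184, adjusted p = 0.465). The rise of Igfbp5 from D5 to D6, 3.71 ± 0.216 (adjusted p = 2.48e-08), came in a step in which Six5 did not pass the test. Myog, a muscle target of SIX-family proteins, had no count before D10.

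**Figure D4:**
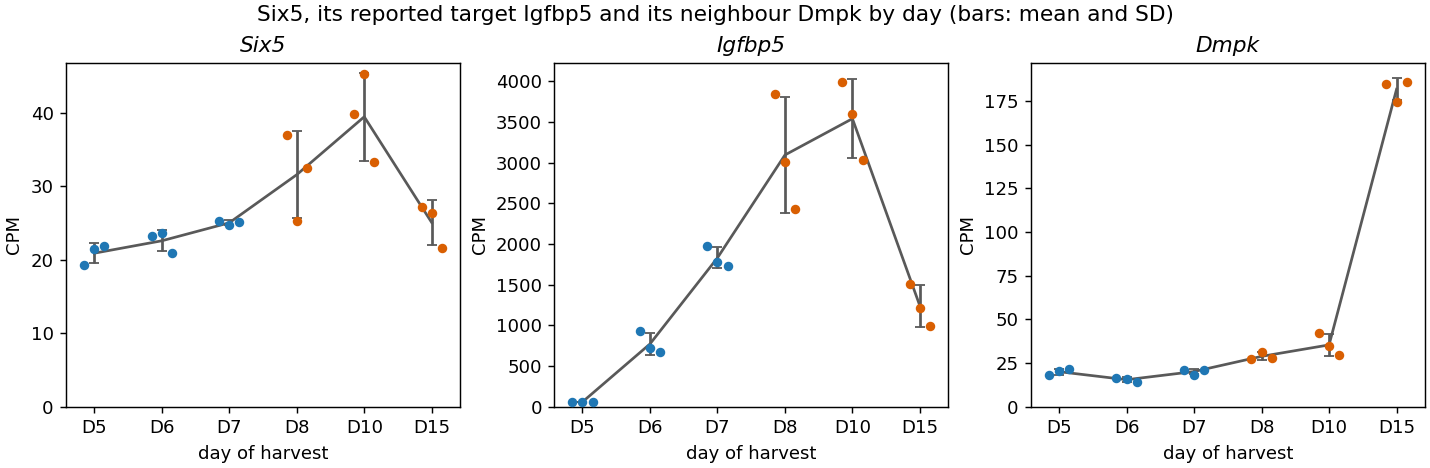
CPM (vertical axes, own scales) of Six5, Igfbp5 and Dmpk on the 6 days (horizontal axes), with libraries as points and day means ± SD as lines. Six5 and Igfbp5 have their highest means at D10, 39.5 and 3542 CPM, with D8 and D10 libraries overlapping for both, and Dmpk at D15, 181.8 CPM.

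Genes linked to DACH1 were higher at D15 than at D5, but mostly did not rise in the step in which the fall of Dach1 was called. They comprise Cxcl12, which DACH1 raises in coronary endothelium of mice, its receptor gene Cxcr4 and arterial endothelium genes. All 6 were tested and rose between D5 and D15 (median 3.62, against 0.0322 over all genes), where 40.3% of all genes were called higher. From D5 to D6, where the fall of Dach1 was called, 1 of the 6 rose and 1 fell, from D8 to D10 3 rose, and from D10 to D15 4 rose and 1 fell. Of all genes, 18.2%, 17.3% and 26.4% were called higher in these steps, and 16.4%, 13.9% and 24.4% lower. Cxcl12 had 177.0 ± 2.82 CPM at D15 and 40.3 ± 9.88 CPM at D5 (2.13 ± 0.132, adjusted p = 6.79e-11). It had 178.1 ± 19.1 CPM at D6, after the called fall of Dach1, and its highest mean, 367.2 ± 44.0 CPM, at D8. Cxcr4 had 6.15 ± 1.80 CPM at D5, 0.157 ± 0.147 CPM at D8 and 16.0 ± 8.765 CPM at D15. Dll4 had 16.4 ± 8.51 CPM at D15 and 0.844 ± 0.249 CPM at D5 (adjusted p = 5.77e-08). Gja5 had 212 counts at D15 and 0 at D5. Beside this, the 7 endothelial markers had a median log2 fold change of 3.97 between D5 and D15, with 6 called higher. Their sum had a mean of 407.2 CPM at D15 and 132.2 CPM at D5. Kdr and Tek alone had 66.4 and 55.5 CPM of it at D5, and 85.2 and 89.1 CPM at D15. The part of endothelial RNA in the rises of the genes linked to DACH1 was not tested.

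The genes most like each member in shape were sought by Pearson's r of log2 CPM over the 6 day means, among 10341 or 10342 genes with a mean of at least 2 log2 CPM. As the points share the libraries and the scaling, and as so many genes were searched over 6 points, the values describe likeness only. Most like Six5 were Mpzl1 (0.993), Zkscan2 (0.992) and Grb10 (0.991). Most like Six4 were Cenpq (0.999), Kpna4 (0.998) and Prdx1 (0.998), and most like Six2 were Pitpnb (0.998), Gpank1 (0.996) and Dyrk3 (0.994). Dach1 was closest to Ubqln2 (0.995), Rmnd5a (0.994) and Imp4 (0.990), Eya1 to Pja1 (0.999), Dpp3 (0.998) and Lrrcc1 (0.998), and Eya3 to D10Wsu102e (0.999), Tsen54 (0.999) and Ppig (0.998). Eya4 had no neighbour as close, with Pde4c at 0.973, Msi2 at 0.972 and Rad51l3 at 0.969. Among the members themselves the closest pair was Eya3 and Dach1 (0.951), followed by Six4 and Eya3 and by Six2 and Dach1 (0.896 each). Six5 ran against Six2 (-0.825) and Six4 (-0.722).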

How the data were processed

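The starting point was the table of raw gene counts that the authors deposited. RNA of 500000 cells per sample was sequenced as single reads of 50 bases, per the labels' protocols, and aligned with STAR to mm10, per the submitters' processing notes. The version, the counter, the annotation and the use of strand in counting are not given in the sources used here. In all, the table had 23337 gene symbols and 21 columns, of which 18 were matched by name to a day of harvest and 3, matching no sample, were left out. Column names give the day but no replicate number. Totals were 5257601 to 7122093 counts, and pairs of libraries of a day differed beyond counting noise (chi-square over degrees of freedom 2.206 to 9.232 on genes with at least 20 counts).

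Genes were filtered (filterByExpr, minimum count 10), scaled by TMM and fitted with edgeR 4.0.16 in R 4.3.3 (glmQLFit, robust, 1 mean per day, 12 residual degrees of freedom, all 18 libraries), which was tested on simulated data. Contrasts were tested by glmQLFTest with Benjamini-Hochberg adjustment. Fold changes are later minus earlier. Each SE was obtained as the size of the unshrunken log2 fold change over the root of its F value. Log2 CPM used a prior count of 2. Counting intervals are exact binomial (95%), and they and floors of 3 counts cover counting error only. Levels per kb used exon lengths of GENCODE M21 (GRCm38, equal to mm10). Named beside the members are up to 4 genes per list with the smallest p for D15 against D5 and the 3 most alike genes per member; some genes the rule names are not reported here. Members, lists and tests were chosen with earlier results of these data known. Alternatives were RLE and upper quartile factors, other filters, DESeq2 1.42.0, limma-voom (limma 3.58.1), fits of the compared days alone and each library left out. Figures were made with matplotlib 3.10.9.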

Additional observations from a re-analysis of the deposited data

How the results depend on the processing

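Calls for Six4, Eya1, Eya3 and Dach1 between D5 and D15 kept their direction and passed under every alternative that tested them. The number of members called for D15 against D5 was 6, and 4 to 7 under the alternatives. The 7 included Eya2, which was tested only in the fit without a filter. Eya4 lost this call with DESeq2 (adjusted p = 0.0571), and across days it lost its call without a filter, with DESeq2 and with limma-voom (adjusted p = 0.0603, 0.0753 and 0.0735). With a filter of 1 CPM in 9 libraries, Six2, Eya2 and Eya4 were not tested, and the members called were 1 rather than 2 from D5 to D6 and 2 rather than 1 from D6 to D7. Eya3 gained a call from D5 to D6 with the compared days alone (adjusted p = 0.0301) and from D10 to D15 with upper quartile factors (adjusted p = 0.0477), which made 3 members called in each. From D6 to D7 the count was 0 with DESeq2, 3 with limma-voom and 2 with the compared days alone. From D8 to D10 it was 1 rather than 2 with DESeq2 and with the compared days alone. From D10 to D15 it was 1 with the compared days alone, a fit in which Eya1 was not tested. Eya1 passed in that step under every alternative that tested it (adjusted p up to 4.24e-04). Counts of members called with a library left out ran from 0 to 3 from D6 to D7, 0 to 2 from D7 to D8, 1 to 3 from D8 to D10 and 2 to 4 from D10 to D15. The cause was not tested.

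Of 1360 member values under alternatives 26 changed sign, and none of these passed the test in either fit. For Six4 from D5 to D6 the values were -0.00038 with RLE factors, -0.00075 with the 1 CPM filter, -0.00021 with DESeq2, -0.0085 with limma-voom and -0.0044 with the compared days alone, and -0.17 to 0.097 with a library left out. For Eya1 from D7 to D8 they were 0.012 with RLE factors, 0.022 with upper quartile factors, 0.0010 without a filter, 0.0024 with the 1 CPM filter, 0.013 with DESeq2 and 0.0045 with the compared days alone, and -0.13 to 0.13 with a library left out. Six4 from D10 to D15 had 0.0056 with limma-voom and -0.24 to 0.12 with a library left out. With a library left out, Six2 from D7 to D8 ran from -1.74 to 0.45, Dach1 from D7 to D8 from -0.063 to 0.70, and Eya3 from D8 to D10 from -0.10 to 0.087. No paired analysis was possible because the columns carry no replicate number. Eya2, Eya4 and Six2 had so few counts that depth limits what can be said of their later days.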
